A study of Homo sapiens with 4 samples.

Results

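The olfactory receptor cluster at chromosome 1q44 was described across 4 STARR-seq peak lists from MDA-MB-231 cells. The members were all protein-coding RefSeq genes with a symbol of OR followed by a number that lie in a window of 1.4 Mb of chromosome 1 (hg38), together with every peak whose summit falls in that window. The first gene is OR2B11, from 247449118, 49.1 kb above the lower limit of the window, and the last is OR14I1, to 248702766, 97.2 kb below the upper limit. By this rule there were 43 genes of 19970 protein-coding genes on chromosomes 1 to 22 and X, and 81 peaks of 260678. The cluster was chosen by the measured values of these same lists, namely its peak density, sharing, widths, summit shapes and heights, so all of these are given as a description, with no test.

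In STARR-seq, genomic fragments are cloned into the transcribed part of a reporter plasmid, and a fragment with enhancer activity raises the amount of its own RNA, which is then sequenced. The plasmid library carried sheared DNA of MDA-MB-231, a mesenchymal breast cancer line, and was transfected into the same line after the drugs had been added to the medium. The cells had received SHP1705 at 10 µM, which per the labels stabilizes the circadian repressor CRY2, MG132 at 100 nM, a proteasome inhibitor, both drugs at these doses, or DMSO, and RNA was taken 8 h after transfection. There was 1 library per treatment and no library of the plasmid DNA was used here, so differences between lists have no replicate check, no p-value is given, and the number of copies of the locus in this line or in the library was not tested. All 4 groups share the cell line and the plasmid library.

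Olfactory receptors are G protein-coupled receptors of the nasal sensory neurons, and their genes form the largest gene family of the human genome. The coding sequence of such a gene usually sits in a single exon, the genes stand in tandem clusters that arose by local duplication, and each mature neuron of the mouse nose transcribes a single receptor allele while the other receptor genes lie in heterochromatin. The 1q44 cluster consists of class II receptors. A fragment on a plasmid is outside its native chromatin, so a peak near a silent receptor gene is no measure of whether that gene is transcribed.

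The 43 genes belong mainly to family OR2, with 33 members, of which 15 are in subfamily OR2T, 5 in OR2L and 5 in OR2M. Family OR14 has 6 members, and OR1, OR6, OR11 and OR13 have 1 each. Annotated gene bodies ran from 930 bp to 163987 bp, with a median of 6247 bp, and 13 genes were at most 1200 bp long, which is about the size of the coding exon alone. The longest, OR2L13, at 247937177 to 248101163, takes up 11.7% of the window and encloses other OR2L genes. Among peaks, the nearest ones outside the window were 0.504 kb above its upper limit in the combination (10.8 fragments per 1000000) and 2.76 kb above it in DMSO (31.3). The nearest ones inside were 1.499 kb above the lower limit in SHP1705 (0.558) and 18.3 kb above it in MG132 (5.83).

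The promoters of these genes were compared because they show what the members share in sequence. RefSeq promoter windows of GRCh38.p14, from 250 bases before to 50 bases after the gene start, were found for 36 of the 43 genes. Their median GC content was 37.2%, against 37.7% in 278 olfactory receptor promoters elsewhere and 62.7% in all 15811 protein-coding promoters. They held a median of 2 CpG dinucleotides, against 1 elsewhere in the family and 22 in all promoters. The letters TATAAA, on either strand, occurred in 18 of the 36 (50%), against 33.5% of the receptor promoters elsewhere and 9.64% of all promoters. The homeodomain letters TAATTA occurred in 22.2%, 23.02% and 3.35% in the same order. For TGANTCA the shares were 16.7%, 10.4% and 5.76%. These letters include the AP-1 site, which has C or G at N, but forms with A or T were counted too. The E-box letters CACGTG, which the clock activators CLOCK and BMAL1 bind and whose activity CRY2 represses, occurred in 1 of the 36 promoters (2.78%), that of OR2T10, against 1.44% of the receptor promoters elsewhere and 8.87% of all promoters. The motif of the olfactory factor Olf-1 (EBF) was in none of the 36, against 1.08% and 1.398%. Both strands were searched, overlaps between motifs were not removed, and a match is only a run of letters. Of the 43 genes, 13 are about as long as the coding exon alone. The annotated start of such a gene can be that of the coding sequence, as for OR14K1. Its window then need not hold the start of transcription, so the comparison with all promoters sets partly unlike regions side by side. Of these promoters, 4 are shown: that of OR14K1, the only one under a peak, with the bases under the combination peak in capitals; that of OR2L13, the richest in GC (67.3%, 24 CpG dinucleotides), with CpG in capitals; that of OR2AK2, the poorest in GC (24.3%), with TATAAA on either strand in capitals; and that of OR2T10, with the E-box in capitals. They are written 5′ to 3′ along the gene.
OR14K1, chr1:247738365-247738664, plus strand: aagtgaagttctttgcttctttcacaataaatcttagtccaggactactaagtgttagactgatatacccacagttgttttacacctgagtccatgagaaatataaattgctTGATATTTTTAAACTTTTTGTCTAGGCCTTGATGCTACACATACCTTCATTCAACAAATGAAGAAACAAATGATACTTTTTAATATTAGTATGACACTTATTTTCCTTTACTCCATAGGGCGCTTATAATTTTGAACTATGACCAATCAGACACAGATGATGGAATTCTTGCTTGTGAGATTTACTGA
OR2L13, chr1:247936927-247937226, plus strand: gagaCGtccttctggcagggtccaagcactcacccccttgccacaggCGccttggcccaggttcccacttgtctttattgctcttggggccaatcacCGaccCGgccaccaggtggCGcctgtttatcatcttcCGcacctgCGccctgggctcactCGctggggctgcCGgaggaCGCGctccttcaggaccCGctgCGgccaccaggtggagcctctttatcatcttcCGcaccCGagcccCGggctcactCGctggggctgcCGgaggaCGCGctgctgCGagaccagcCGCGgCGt
OR2AK2, chr1:247964983-247965282, plus strand: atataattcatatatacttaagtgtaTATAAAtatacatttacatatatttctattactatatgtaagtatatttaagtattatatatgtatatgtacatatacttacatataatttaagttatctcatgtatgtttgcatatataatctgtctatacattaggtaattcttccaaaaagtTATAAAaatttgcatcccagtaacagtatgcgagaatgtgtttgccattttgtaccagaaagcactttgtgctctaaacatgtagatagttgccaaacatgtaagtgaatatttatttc
OR2T10, chr1:248597651-248597950, minus strand: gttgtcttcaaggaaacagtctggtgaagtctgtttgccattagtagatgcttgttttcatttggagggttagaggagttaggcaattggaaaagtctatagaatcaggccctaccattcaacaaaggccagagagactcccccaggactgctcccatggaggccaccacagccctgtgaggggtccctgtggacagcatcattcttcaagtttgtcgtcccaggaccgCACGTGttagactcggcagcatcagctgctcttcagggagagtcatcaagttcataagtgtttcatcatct

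The promoters of OR2M3 and OR2T12 are shown because they were the most alike of all 630 pairs, with 76.3% identity over the whole alignment, gaps included. They shared 251 identical bases among 271 aligned ones and differed at 20, over genes 106 kb apart and in opposite orientation. OR2M3 is known to respond to a thiol found in onion. Capitals mark the bases that are not identical in the alignment.
OR2M3, chr1:248197015-248197314, plus strand: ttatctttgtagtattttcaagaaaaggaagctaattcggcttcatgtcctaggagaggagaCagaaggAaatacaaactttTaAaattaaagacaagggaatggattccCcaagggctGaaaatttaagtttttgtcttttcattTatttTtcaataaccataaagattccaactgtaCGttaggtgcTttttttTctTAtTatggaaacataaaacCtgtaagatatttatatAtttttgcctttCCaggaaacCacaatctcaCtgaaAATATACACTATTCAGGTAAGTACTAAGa
OR2T12, chr1:248303375-248303674, minus strand: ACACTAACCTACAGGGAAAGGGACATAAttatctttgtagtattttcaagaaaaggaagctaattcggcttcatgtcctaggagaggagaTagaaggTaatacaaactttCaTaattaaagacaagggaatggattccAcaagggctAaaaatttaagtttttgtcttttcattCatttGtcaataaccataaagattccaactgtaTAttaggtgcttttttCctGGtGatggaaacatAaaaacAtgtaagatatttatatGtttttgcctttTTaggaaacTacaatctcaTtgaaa
By the same measure of identity, the next pair was OR2L5 and OR2L3 with 71.3%, followed by OR2T4 and OR2T5 with 56.6%, OR14A2 and OR2AK2 with 56.5%, and OR2M5 and OR2T33 with 56.2%, where the median of all pairs was 50.4%. Olfactory receptor coding exons can be closer than their promoters, and fragments of alike copies could have been split between them or dropped by the aligner; how this touched the peaks below was not tested.

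The window held fewer peaks than the rest of 1q in every drug list and about as many in DMSO. SHP1705 had 26 peaks there, MG132 22, the combination 13 and DMSO 20. Per 100 kb this was 1.86 in SHP1705 (95% Poisson interval 1.21 to 2.72), against 3.05 in the rest of 1q, a ratio of 0.609 (0.398 to 0.892). In MG132 the window had 1.57 peaks per 100 kb (0.985 to 2.38), against 2.42 in the rest of 1q, a ratio of 0.650 (0.407 to 0.984). In the combination it had 0.929 (0.494 to 1.59), against 1.90, a ratio of 0.488 (0.260 to 0.834). In DMSO it had 1.43 (0.873 to 2.21), against 1.45, a ratio of 0.983 (0.600 to 1.52). These intervals cover counting error only and take peaks as independent. They overlap between the 4 lists, and a difference between the drug lists and DMSO was not tested. Depth differed, since SHP1705 had 118324303 fragments, MG132 27289266, the combination 28331486 and DMSO 29717604, so that the window had 0.220, 0.806, 0.459 and 0.673 peaks per 1000000 fragments.

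The window was also set among 73 tiles of its own size laid along 1q towards the centromere. It had fewer peaks than most tiles in the drug lists. In SHP1705, 13 tiles had fewer peaks than the 26 of the window, and the tile median was 38. In MG132, 8 tiles had fewer than 22, with a median of 33. In the combination, 1 tile had fewer than 13, with a median of 26. In DMSO, 38 tiles had fewer than 20, with a median of 19.

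**Figure D1:**
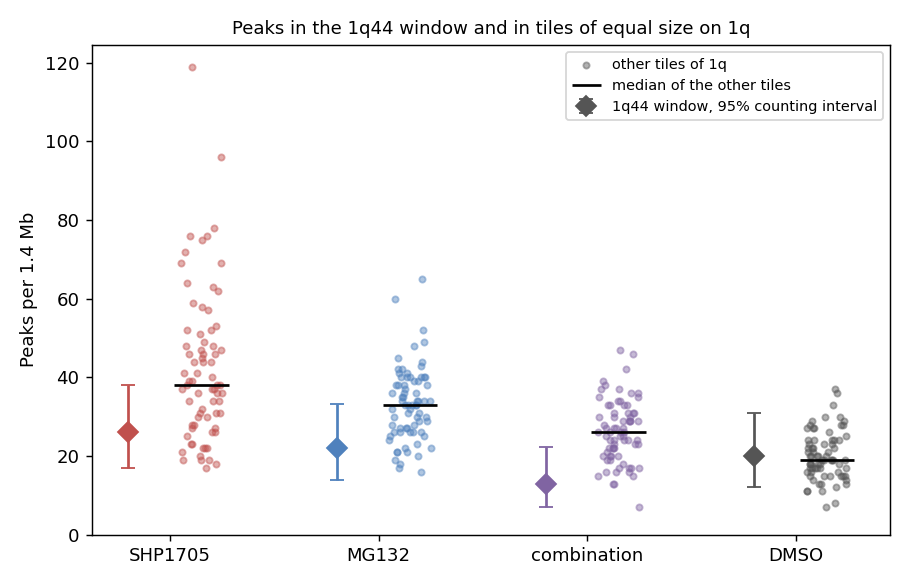
Number of peaks per 1.4 Mb in the 1q44 window (diamonds, with 95% Poisson intervals) and in each of 73 other tiles of the same size on 1q (points, with their median as a line), for each list. The window sits below the tile median in SHP1705, MG132 and the combination, and next to it in DMSO, where it had 20 peaks and the tile median was 19.

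The peaks were of unlike kinds. A summit within 5 bp of the midpoint of its peak is called centred here, a shape that a pile of identical fragments also has. In SHP1705, 17 of 26 window peaks were centred (65.4%, Wilson 95% interval 46.2 to 80.6), against 28.7% in the rest of 1q (27.1 to 30.3). In MG132 it was 18 of 22 (81.8%, 61.5 to 92.7), against 62.0%, and in the combination 5 of 13 (38.5%, 17.7 to 64.5), against 59.9%. In DMSO it was 12 of 20 (60.0%, 38.7 to 78.1), against 62.4%.

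The low density of the window in SHP1705 lay in the peaks that were not centred. These numbered 9 in SHP1705, a density ratio of 0.296 over the rest of 1q (0.135 to 0.561), while the 17 centred ones gave a ratio of 1.39 (0.808 to 2.22). MG132 was alike, with 4 peaks that were not centred and a ratio of 0.311 (0.0847 to 0.796), and 18 centred ones with a ratio of 0.858 (0.509 to 1.36). The combination ran the other way, with a ratio of 0.748 (0.323 to 1.47) for 8 peaks that were not centred and of 0.313 (0.102 to 0.731) for 5 centred ones. In DMSO the ratios were 1.05 (0.451 to 2.06) over 8 peaks and 0.945 (0.488 to 1.65) over 12. The intervals for centred and other peaks overlapped in MG132, the combination and DMSO, and stood apart in SHP1705 alone. A difference by summit kind, or between lists in it, was not tested.

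**Figure D2:**
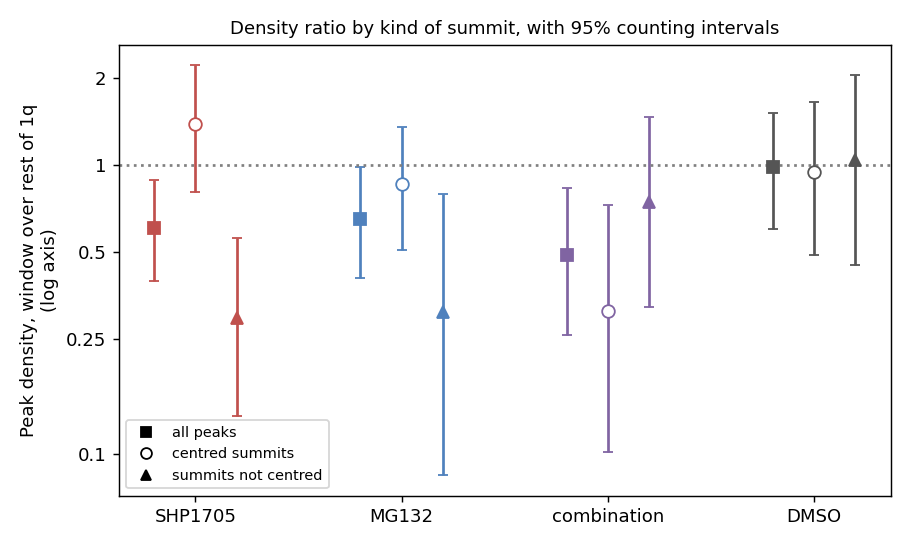
Peak density of the 1q44 window divided by that of the rest of 1q, on a log axis, for all peaks (squares), centred summits (open circles) and summits that were not centred (triangles), with 95% Poisson intervals of the window count. Peaks that were not centred stand at 0.296 in SHP1705 and 0.311 in MG132, and centred ones at 0.313 in the combination, while the 3 DMSO values lie close to 1.

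Of the 9 peaks in SHP1705 that were not centred, 4 covered pseudogenes, 4 protein-coding genes and 1 no annotated gene. The tallest of all SHP1705 peaks in the window was among them, at LYPD8, which encodes a secreted protein of the colon epithelium. It lay at 248739417 to 248739874 with 15.8 fragments per 1000000, and its summit was 202 bp inside the 3′ end of that gene, on the minus strand. It also overlaps the noncoding RNA gene LOC107985747. The next was 5.87 times lower. Peaks of 2.69 and 2.21 covered DPY19L4P1, a pseudogene named for DPY19L4, another of 0.938 covered HSD17B7P1, a pseudogene named for HSD17B7, and one of 0.389 the receptor pseudogene OR2T7. Of the 17 centred SHP1705 peaks, 8 touched a protein-coding gene, 9 touched no annotated gene and none was above 1.47 per 1000000. Over the 4 lists, 42 of the 81 peaks touched no annotated gene and 28 a protein-coding gene. Another 7 touched a pseudogene and no protein-coding gene, and 4 only a long noncoding RNA gene. The same split for the rest of 1q is not given here, so these counts describe the window alone.

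Window peaks were lower than those of the rest of 1q in SHP1705 and DMSO and of similar height in MG132. In SHP1705 the heights ran from 0.237 to 15.8 fragments per 1000000, with a median of 0.503, against 0.828 in the rest of 1q, a ratio of medians of 0.607 (interval of the window median over the same value, 0.408 to 0.990). In MG132 they ran from 1.72 to 18.03 with a median of 5.20, against 5.02, a ratio of 1.04 (0.723 to 2.13). In the combination they ran from 0.812 to 45.6 with a median of 5.72, against 6.85, a ratio of 0.835 (0.170 to 2.11). That ratio had no settled direction, being 1.64 with lists of equal length and 0.268 with only summits that are not centred. In DMSO they ran from 0.572 to 66.7 with a median of 3.01, against 7.47, a ratio of 0.403 (0.189 to 0.779). The lowest raw pileup in the window was 28 fragments in SHP1705, against 17 in DMSO, so that the deeper SHP1705 list reached lower values per 1000000. Median widths were 403.5, 421, 470 and 443 bp for SHP1705, MG132, the combination and DMSO. In the rest of 1q they were 457, 427, 427 and 420 bp. Upper quartiles in the same order were 458, 470, 496 and 498.5 bp, against 725, 472, 473 and 469 bp. The largest gap in both was in SHP1705, where window peaks were narrower.

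**Figure D3:**
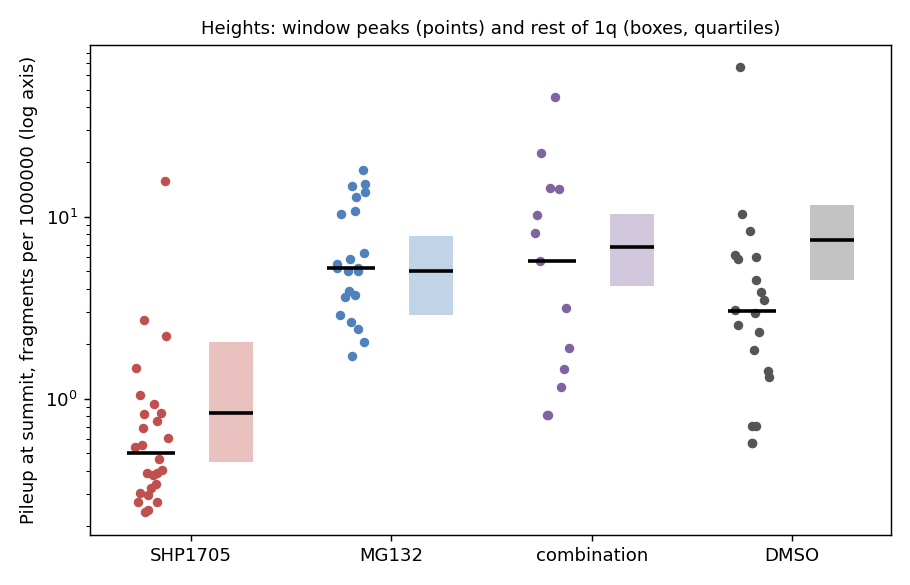
Height of each window peak (points, with their median as a line) beside the quartile range and median of peaks in the rest of 1q (boxes), for each list, in fragments per 1000000 on a log axis. The window median is 0.503 in SHP1705 against 0.828 in the rest of 1q, and 3.01 in DMSO against 7.47, while in MG132 it is 5.20 against 5.02.

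Most receptor genes carried no peak. On the gene body, SHP1705 had a peak in 6 of 43 (13.95%, Wilson interval 6.56 to 27.3), MG132 in 4 (9.30%, 3.68 to 21.6), the combination in 3 (6.98%, 2.40 to 18.6) and DMSO in 3 (6.98%, 2.40 to 18.6). Over all protein-coding genes these shares were 76.9%, 52.2%, 46.1% and 42.5% in the same order, but receptor genes are short, and with a median length of 6247 bp against 24190 bp the shares cannot be read side by side. Per 100 kb of gene body, SHP1705 had 2.04 summits (0.934 to 3.88) in the receptor genes, against 3.85 in all protein-coding genes. MG132 had 0.681 (0.140 to 1.99), against 2.18, the combination 0.681 (0.140 to 1.99), against 1.73, and DMSO 0.908 (0.247 to 2.32), against 1.41. The upper limit lay below the value of all genes in MG132 and not in the other 3 lists, and this was not tested. Olfactory receptor genes elsewhere, 349 in number, had 2.28, 2.65, 2.03 and 1.74 summits per 100 kb of body for SHP1705, MG132, the combination and DMSO.

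In all, 32 of the 43 genes had no peak on the body in any list, 8 had one in 1 list, 2 in 2 lists and 1 in all 4. The share with none was 74.4% (59.8 to 85.1), against 67.6% of receptor genes elsewhere, 14.9% of protein-coding genes in the rest of 1q and 13.7% of all protein-coding genes. The split of body peaks by number of lists is not given here for other genes, so those counts describe the cluster alone. Of the 13 genes of at most 1200 bp, 1 had a peak, and of the 30 longer ones, 10 did. The genes without any were OR2B11, OR2G2, OR2G3, OR14L1, OR13G1, OR6F1, OR1C1, OR14A16, OR11L1, OR2W3, OR2T8, OR2AJ1, OR2L8, OR2AK2, OR2L2, OR2L3, OR2M5, OR2M2, OR2T33, OR2M7, OR14C36, OR2T4, OR2T1, OR2T2, OR2T3, OR2T5, OR2G6, OR2T34, OR2T10, OR2T11, OR2T35 and OR2T27. OR2T11 is known as a receptor for small thiols that needs copper. By subfamily, 3 of 15 OR2T genes had a body peak in some list, 2 of 5 OR2L, 2 of 5 OR2M, the 1 OR2C gene and none of the 3 OR2G genes, and 3 of the 6 OR14 genes did. With a summit inside the gene or within 5 kb of it, the count was 24 of 43 (55.8%, 41.1 to 69.6), against 65.3% of receptor genes elsewhere and 94.3% of all protein-coding genes. Such summits in 2 or more lists were found for 7 genes (16.3%, 8.12 to 29.97), against 27.5% of receptor genes elsewhere and 76.8% of all protein-coding genes. By list, the number of members with such a summit was 10 for SHP1705 (23.3%), 12 for MG132 (27.9%), 5 for the combination (11.6%) and 7 for DMSO (16.3%). In the same order this was 26.6%, 32.4%, 26.1% and 20.6% of receptor genes elsewhere. Over all protein-coding genes it was 84.5%, 63.2%, 56.3% and 51.7%. Here too the genes compared differ in length.

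OR2L13 was the only receptor gene of the window with a peak in every list, and it is also by far the longest of them. SHP1705 had 4 peaks on it, the tallest with 0.693 fragments per 1000000. MG132 had 1 with 5.02, the combination 2, the taller with 3.14, and DMSO 2, the taller with 3.87. All 4 lists thus touched it, but at different places, with a single exception. SHP1705 and MG132 both had a peak at 247994731 to 247995096, with the same first and last base, inside OR2L13. Its height was 5.02 per 1000000 (137 fragments) in MG132 and 0.541 (64 fragments) in SHP1705. Among all SHP1705 peaks that overlap an MG132 peak, 619 of 10041 (6.16%) had both bounds the same.

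The 2 genes with a body peak in 2 lists were OR14K1, of 945 bp at 247738615 to 247739559, and the longer OR14A2, which encloses it. Both carried the same peaks in the combination and in MG132 and in neither SHP1705 nor DMSO. The combination peak, at 247738477 to 247738940, had 14.3 fragments per 1000000, and the MG132 peak, at 247738862 to 247739275, had 12.8. They shared 79 bp inside the gene, past its start, and their summits were 168 bp apart. The combination peak covered the annotated gene start, which is an ATG, and 188 bases of the promoter window printed above, which the MG132 peak did not reach. This was the only receptor promoter window under a peak in any list, out of 36. The share over all protein-coding promoters is not given here, so the count cannot be read as a trait of the cluster.

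The other 8 receptor genes with a body peak had it in 1 list each. In SHP1705 these were OR2C3 with 0.406 fragments per 1000000, OR2L5 with 0.693, a peak that also lies on OR2L13, OR2M3 with 0.752, OR2T12 with 0.608 and OR14I1, which had 2 peaks of at most 0.321. In MG132 it was OR2M4, with 15.1, the tallest peak on a receptor gene in that list. In DMSO these were OR2T29 with 1.85 and OR2T6 with 1.31. The tallest on a receptor gene in SHP1705 was OR2M3, in the combination OR14K1 and in DMSO OR2L13.

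Few window peaks coincided between lists, as in the rest of 1q. Merged over the 4 lists they formed 75 regions, of which 69 (92.0%, 83.6 to 96.3) held a peak in 1 list only and 6 in 2 lists, against 92.3% and 5.92% of 8261 regions in the rest of 1q. No region was held by 3 or 4 lists, which allows a share of up to 4% as 3 counts of the total, or 4.87% by the Wilson upper limit, where 0.872% and 0.908% of regions in the rest of 1q were. Overlap with any other list was found for 2 of 26 SHP1705 peaks (7.69%, 2.14 to 24.1), against 14.001% in the rest of 1q. It was found for 4 of 22 MG132 peaks (18.2%), against 16.3%, for 3 of 13 combination peaks (23.1%), against 18.3%, and for 3 of 20 DMSO peaks (15%), against 20.1%. Of the 52 centred peaks 4 overlapped another list, and of the 29 others 8 did. These are the peaks of the 6 shared regions, counted once per list. The same split for the rest of 1q is not given here, so no difference by summit kind is read from it.

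The tallest shared region lay upstream of OR2T12. The combination peak, at 248306604 to 248307291, was the tallest of that list in the window, with 45.6 fragments per 1000000 and a summit 3.446 kb upstream of the gene start. The MG132 peak, at 248306205 to 248306623, was likewise the tallest of its list, with 18.03 and a summit 2.904 kb upstream. They shared only 20 bp, with summits 542 bp apart, so they need not be one element. Neither SHP1705 nor DMSO had a peak there.

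Each drug list shared 1 window region with DMSO. At 247801192 to 247801779, outside any gene and nearest to OR14A16, SHP1705 had 1.47 fragments per 1000000 and DMSO 0.572. At 247705960 to 247707494, nearest to OR6F1, MG132 had 6.34 and DMSO 2.52, with summits 1205 bp apart. At 248170961 to 248171811, on the pseudogene LOC100216488 near OR2M2, the combination had 1.91 and DMSO 0.707. All 3 were at least 2-fold higher per 1000000 fragments in the drug list. Among all regions shared with DMSO, 24.7%, 13.1% and 12.8% were at least 2-fold higher with SHP1705, MG132 and the combination, and 69.8%, 16.1% and 15.6% at least 2-fold lower. Each of the 3 rests on 1 pair of peaks, with 17, 75 and 21 fragments in DMSO.

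Set against DMSO, most window regions were called in a single list. SHP1705 had 25 of 45 regions without a DMSO peak (55.6%), against 61.8% of all regions, and DMSO had 19 without a SHP1705 peak (42.2%, against 31.4%). Both lists held 2.22%, against 6.81%. MG132 had 21 of 41 regions without a DMSO peak (51.2%, against 56.1%), and DMSO 19 without an MG132 peak (46.3%, against 35.8%), with 2.44% in both, against 8.08%. The combination had 12 of 32 (37.5%, 22.9 to 54.7, against 50.7%), and DMSO 19 without a combination peak (59.4%, against 41.0%), with 3.13% in both, against 8.33%. The 3 comparisons share the DMSO list. With every list cut to the length of the shortest, SHP1705 had 10 of 30 regions without a DMSO peak (33.3%, against 46.4% of all regions), and the combination shared 0 of 28 with DMSO, against 5.96% of all regions.

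**Figure D4:**
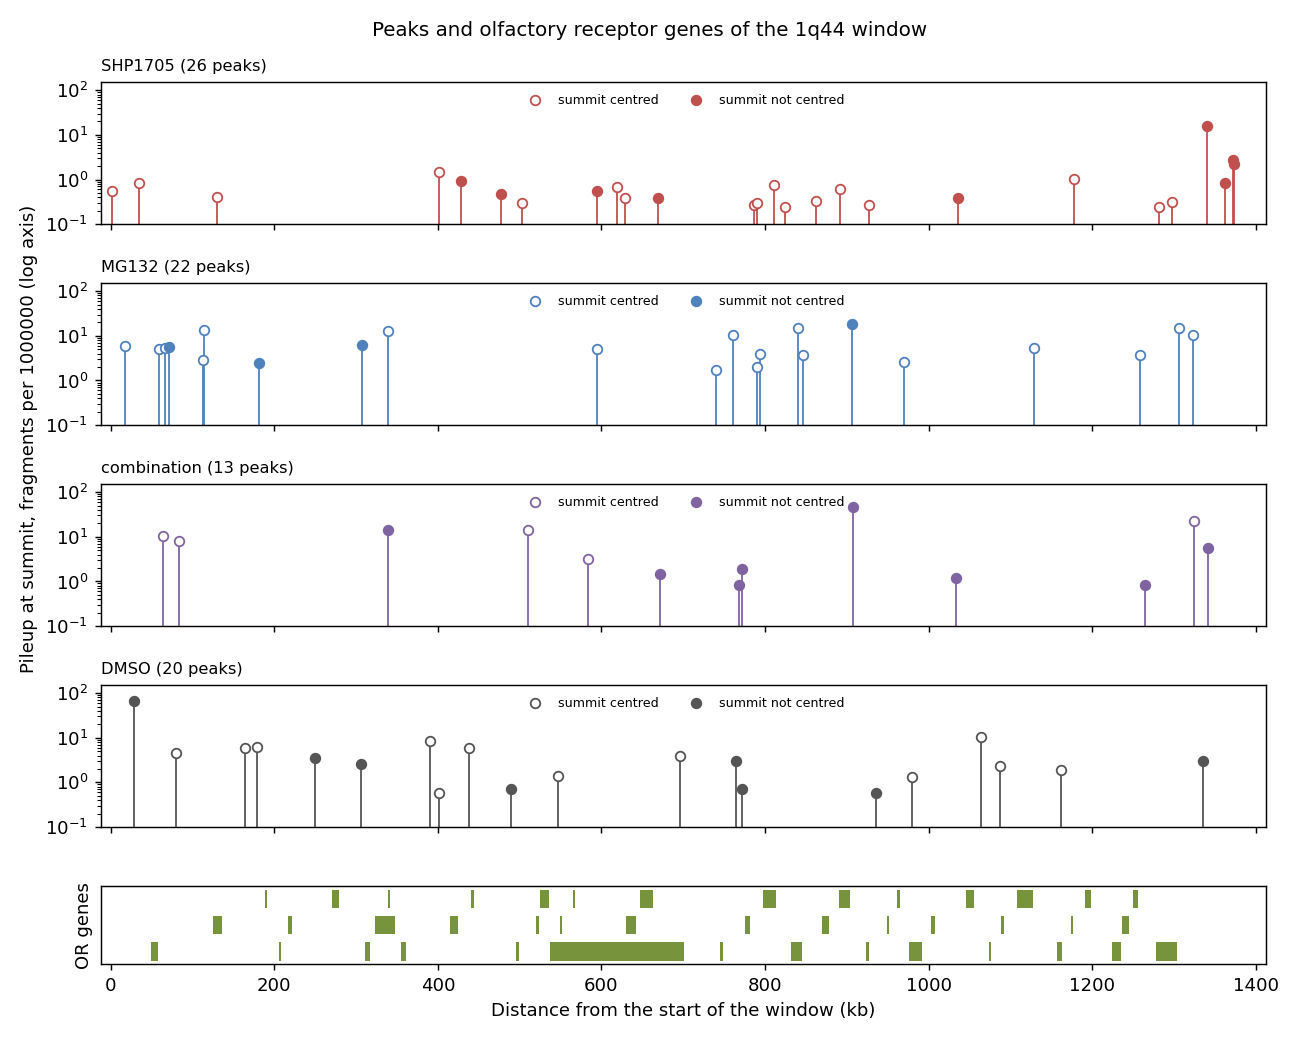
Position along the 1q44 window, in kb from its start, and height of every peak in fragments per 1000000 on a log axis, for each list, with open circles for centred and filled circles for other summits. The lowest track shows the 43 receptor genes on 3 rows, with genes under 3 kb drawn as 3 kb; the tallest combination and MG132 peaks stand together upstream of OR2T12, and the tallest SHP1705 peak stands at LYPD8.

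Along the window the peaks were spread out. Each of the 14 bins of 100 kb held at least 1 peak of some list, with between 1 and 10 over the 4 lists. SHP1705 had peaks in 12 bins, MG132 in 10, the combination in 9 and DMSO in 12. The longest stretch between neighbouring summits measured 272 kb for SHP1705, 256 kb for MG132, 255 kb for the combination and 173 kb for DMSO. Summits lay inside a receptor gene for 9 of 26 SHP1705 peaks, 3 of 22 MG132 peaks, 3 of 13 combination peaks and 4 of 20 DMSO peaks, where receptor gene bodies take up 31.5% of the window.

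The 4 other protein-coding genes of the window flank or interrupt the cluster. NLRP3, the inflammasome sensor, held the tallest DMSO peak of the window, at 247427885 to 247428417, with 66.7 fragments per 1000000, which was 6.43 times the next. On the same gene SHP1705 had a peak of 0.820 and MG132 one of 5.83, at other places, and the combination had none. GCSAML, a relative of a germinal centre signalling gene, had peaks of up to 0.406 in SHP1705, 13.7 in MG132 and 5.82 in DMSO. TRIM58, a ubiquitin ligase of red cell precursors, had a peak in SHP1705 only, with 0.465. LYPD8 had the SHP1705 peak described above and a combination peak of 5.72, further inside the gene at 248740516 to 248740922.

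Other olfactory receptor clusters gave a frame for the density. From the first to the last receptor gene, the 1q44 cluster held 1.60 peaks per 100 kb for SHP1705 (0.974 to 2.46), 1.52 for MG132 (0.912 to 2.37), 0.877 for the combination (0.438 to 1.57) and 1.44 for DMSO (0.851 to 2.27). In 5 clusters of at least 15 such genes on chromosomes 11, 12 and 14, the values ran from 1.76 to 3.06 for SHP1705, from 1.62 to 3.18 for MG132, from 1.08 to 1.83 for the combination and from 0.969 to 2.08 for DMSO. The 1q44 value was below all 5 in the 3 drug lists, and within their range in DMSO, but its interval overlapped that of every one of them. In the smaller cluster of 13 genes from OR10T2 to OR6N2 on 1q, it was 2.04, 1.81, 3.17 and 1.13, in the order SHP1705, MG132, combination and DMSO.

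Cell type markers were looked up on peaks over gene bodies. The 4 mesenchymal markers reported (VIM, CAV1, FN1, CD44) each had a peak in every list, with a highest value of 589 fragments per 1000000 for SHP1705, 11.8 for MG132, 21.4 for the combination and 15.9 for DMSO. Of 5 luminal breast markers (ESR1, GATA3, FOXA1, PGR, EPCAM), 5, 4, 3 and 3 did in the same order, with highest values of 33.4, 9.05, 21.5 and 19.1. Of 5 genes of olfactory sensory neurons (OMP, CNGA2, GNAL, ADCY3, RTP1), 2, 3, 2 and 2 did, with highest values of 28.4, 12.1, 16.6 and 11.9. The mesenchymal set held the tallest peak of the 3 sets in SHP1705 and in no other list. Peaks on gene bodies do not measure expression, and a longer gene has more room for one.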

How the data were processed

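Peaks were called by the authors, per the file headers, with MACS 2.2.6 for each library alone, on paired fragments with duplicates kept, a q limit of 0.01, no control and a local background over 10000 bp. Per the submitters' processing notes, Trimmomatic, FastQC and Bowtie2 were used with hg38; the sources used here give no versions for them. The deposited signal of a peak is its pileup at the summit in fragments, not scaled for depth, and was divided here by the fragments of the file header, per 1000000. The deposited −log10 q served only to cut lists and the deposited fold ratio was not printed. Duplicates are not independent molecules, so every interval covers counting error only.

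The rest of 1q ran from 144000001 to the last annotated or covered base, without the window. Counts carry exact Poisson intervals and shares Wilson intervals at 95%, with SciPy 1.17.1, and an interval on a median comes from the ranks of the values. Peaks of different lists were shared where they overlapped by at least 1 bp. A region without a DMSO peak, or the reverse, describes calls in single libraries. Counting and overlap were tested on simulated peaks with known answers. Named receptor genes are those with a body peak, those at shared or tallest peaks, those without any peak, and the most alike pairs. The planned comparison of proteins was made on promoters with Biopython 1.88, as protein sequences were not used here. The members and lists were chosen with earlier results of these data known. The other clusters, printed promoters, motifs and shared bounds were chosen after seeing the data. Of the planned mesenchymal markers, 1 is not reported here.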

Additional observations from a re-analysis of the deposited data

How the results depend on the processing

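Of 73 values recomputed under another setting, 62 stayed within the interval of the value given above, or, for counts, within 1.5 times of it. DMSO was the shortest list, so cutting to equal length could not move its own density, heights, widths or gene count. Those DMSO values are among the 62. With only summits that are not centred, the density ratio was 0.296 in SHP1705 and 0.311 in MG132. With a summit within 5 kb in place of overlap with the body, SHP1705 had a peak at 10 receptor genes, MG132 at 12, the combination at 5 and DMSO at 7. With reciprocal overlap of at least 50%, the shared share was 4.55% in MG132, 0% in the combination (0 of 13 peaks, which allows up to 23.1%) and 5% in DMSO. With lists of equal length, a setting chosen after seeing the data, SHP1705 had 10 of 30 regions without a DMSO peak, against 46.4% of all regions, and the combination shared 0 of 28 with DMSO, against 5.96%. The ratio of median heights in the combination was 1.64 with lists of equal length and 0.268 with only summits that are not centred, both inside its wide interval. The density ratios stayed within their intervals with lists of equal length, with −log10 q of at least 5, with 1q taken from nearer the centromere, over the span of the receptor genes alone and, chosen after seeing the data, with only peaks at least as wide as the largest of the 4 minimum widths in the file headers. With lists of equal length these ratios were 0.442, 0.733, 0.343 and 0.983 in SHP1705, MG132, the combination and DMSO. With 1q taken from nearer the centromere they were 0.705, 0.747, 0.562 and 1.12 in the same order. Intervals of the recomputed ratios were not computed, so whether those of the drug lists would reach 1 is not known. No paired analysis was possible because there was 1 library per treatment. Between 13 and 26 peaks per list limit every value.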
